A study of Mus musculus with 6 samples.

Results

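Genes whose RNA was higher in the liver than in both the ileum and the epididymal adipose tissue were described in mice on a high-fat diet. For each of 22180 genes, the mean of the 2 liver arrays was set against the mean of the 2 ileum arrays and the mean of the 2 adipose arrays, and the higher of those organ means was subtracted. A gene was called liver-high where this liver difference was at least 2 on the log2 scale, which is 4-fold. There were 432 liver-high genes, 1.95% of all genes, and 407 of them were protein-coding. The same rule gave 945 genes for the ileum and 384 for adipose tissue. The liver differences chose the members, so the differences themselves are given as a description with no test.

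All mice were C57BL/6J males, bought at 4 weeks of age and kept for 92 days on a lard diet in which fat gave 50% of the energy and dietary fiber made up 5%. The control group received cellulose as the fiber, and the BF group received BF (Beau Fiber), a barley flour rich in β-glucan. For each organ and diet, equal amounts of RNA from 10 mice were combined and hybridised to a single GeneChip Mouse Gene 2.0 ST array, which makes 6 arrays. A pool does not show how single mice varied, and no chow-fed group was analysed here. The labels name adipocytes for the adipose samples, where the methods describe whole epididymal fat, and 1 of several labels of the BF adipose array names cellulose. Values are log2 intensities from robust multichip analysis (RMA), 1 probe set per gene. They compare 1 gene between arrays and not different genes with each other.

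Hepatocytes make most proteins of blood plasma, turn cholesterol into bile acids, dispose of amino acid nitrogen and oxidize drugs and steroids. The ileum takes up bile acids and secretes lipoproteins with the fat that it absorbs, and adipose tissue stores and releases fatty acids. The liver and the gut epithelium share several transcription factors, HNF4 and HNF1 among them.

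The median of the liver arrays was 3.40 on both, against 4.42 and 4.39 in the ileum and 4.17 and 4.19 in adipose tissue. Over all genes the median liver difference was -0.92, and the median of liver minus ileum was -0.77 and of liver minus adipose -0.55. Liver-high genes were therefore counted against a background that lay below 0. Across probe sets, which are not independent, the control and BF arrays correlated at r = 0.986 in the liver, and the liver arrays correlated with arrays of the other organs at 0.806 to 0.830. Marker lists for enterocytes (17 measured) and adipocytes (13) had median liver levels of 3.22 and 4.13 against 11.8 in the ileum and 10.02 in adipose tissue. Neither list had a liver-high member, which follows largely from the rule, since the organ of those cells is subtracted. No marker of cholangiocytes, the lining cells of bile ducts, was liver-high of 9 measured, and none of exocrine pancreas of 11. The cholangiocyte list had a median of 7.87 in the ileum against 3.21 in the liver. With 1.95% of all genes liver-high, lists this short say little about these cells.

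Of 4 genes taken as liver markers, 3 were liver-high. Serpinc1, which encodes antithrombin, read 3.68 and 3.84 in the ileum, 11.26 and 11.27 in the liver, and 3.12 and 2.99 in adipose tissue (control and BF array in this order, here and below), a liver difference of 7.51. Cyp7a1, the rate-limiting enzyme of bile acid synthesis, read 2.66 and 2.69, 10.65 and 9.61, and 2.62 and 2.41, a difference of 7.45. Cyp8b1, which directs bile acid synthesis to cholic acid, read 3.99 and 4.09, 9.95 and 8.76, and 4.57 and 4.32, a difference of 4.91. Both liver arrays were thus far above the other 4 for these 3 genes. Apob, the structural protein of lipoproteins that are made by liver and gut, did not mark the liver. It read 12.07 and 12.34 in the ileum, 12.48 and 12.46 in the liver, while adipose tissue read 3.05 and 3.52, and its difference was 0.27.

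**Figure D1:**
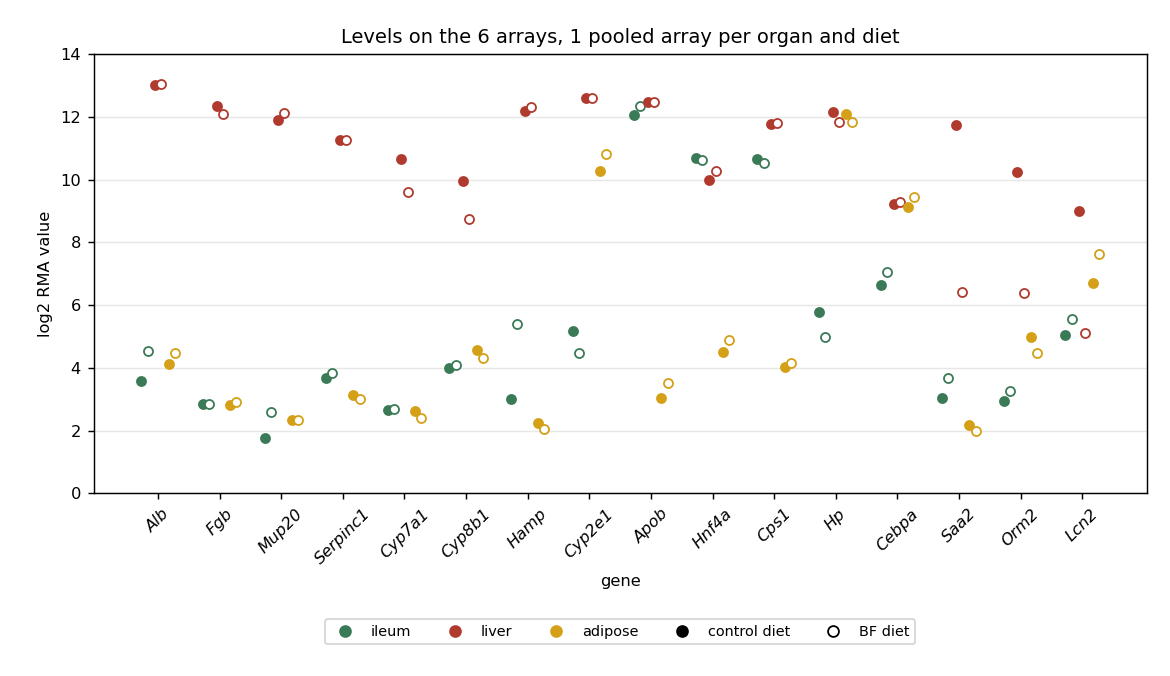
Log2 RMA values (y axis) of 16 genes (x axis) in ileum (green), liver (red) and adipose tissue (yellow) on the control diet (filled) and the BF diet (open), 1 pooled array each. Alb to Cyp2e1 were highest in the liver. Apob to Cebpa had liver differences from -0.51 (Hnf4a) to 1.18 (Cps1). Saa2, Orm2 and Lcn2 read 11.73, 10.24 and 9.0 in the control liver but 6.43, 6.39 and 5.13 in the BF liver.

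The liver differences of the 432 genes ran from 2.00 to 9.77 with a median of 3.91. They were at least 5 for 149 genes, at least 8 for 26 and at least 9 for 7. The next organ was the ileum for 251 and adipose tissue for 181. For 190 genes all 4 arrays of the other organs lay below the median of their own array, where RMA values say little about the amount of RNA, so a difference there measures how far the liver stood above the low end of the array. The 15 protein-coding genes with the largest differences were Mup3, Mup20, Ces3a, Fgg, Fgb, Mug1, Serpina1c, Ahsg, Cyp2a12, Pzp, Serpina1d, Hrg, Alb, Cyp2j5 and Tdo2. Of these, 11 encode secreted proteins.

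The largest difference was that of Mup3, one of the major urinary proteins, which carry pheromones from the liver to the urine. It read 2.81 and 3.03 in the ileum, 12.70 and 12.72 in the liver, and 2.97 and 2.91 in adipose tissue. Mup20, the male pheromone darcin, read 1.77 and 2.58, 11.91 and 12.13, and 2.33 and 2.33, a difference of 9.70. The BF and control liver arrays differed by 0.02 and 0.22 for these genes. Of 5 major urinary protein genes measured, 3 were liver-high, and Mup5 and Mup6 had liver means that lay with those of the other organs (differences of -0.06 and 0.05). Members of this family are near-copies of each other, and probes may be shared between them.

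Plasma carriers and protease inhibitors were liver-high for 19 of 22 measured genes, with a list median of 7.17. Alb, which encodes albumin, read 3.59 and 4.53 in the ileum, 13 and 13.04 in the liver, and 4.14 and 4.49 in adipose tissue. The haem carrier Hpx had a difference of 7.47, the thyroid hormone carrier Ttr 7.12 and the fetuin Ahsg 8.89. Rbp4, the carrier of retinol, is also made by fat, and its difference was 2.76 with adipose readings of 8.68 and 8.98. The 3 genes of the list that were not liver-high were Pon3 (0.14), Afp (-0.50), the fetal counterpart of albumin, and A1bg (-0.68). Among the serpins of the Serpina1 group, which inhibit neutrophil elastase and related proteases, Serpina1c (9.11) and Serpina1d (8.79) were far above the other organs and Serpina1b (0.10) was not, and in all 5 of 7 genes of that cluster were liver-high.

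Coagulation and fibrinolysis genes were liver-high for 21 of 23. The 3 fibrinogen chains, which assemble into 1 plasma protein, had differences of 9.52 (Fgg), 9.35 (Fgb) and 8.23 (Fga). Fgb read 2.84 and 2.84 in the ileum, 12.33 and 12.10 in the liver, and 2.81 and 2.92 in adipose tissue. Prothrombin (F2, 7.67), factor V (F5, 7.32), plasminogen (Plg, 7.15) and factor IX (F9, 6.78) were also liver-high. The 2 exceptions were F7 (1.77), which read 7.61 and 6.89 in adipose tissue, and Pros1 (-0.35), the cofactor protein S, at 7.04 to 7.84 on all arrays. Of 18 complement and lectin genes 12 were liver-high. These were led by Hc, which encodes C5, at 8.09, and the components of the membrane attack complex C9 (7.28), C8b (7.01) and C8a (5.98). Complement genes that were not liver-high included Cfb (1.24) and C4b (0.63), both of which read above 9 in adipose tissue.

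Sequences next to the transcription start are printed for 6 genes that the results turn on, chosen after the motif matches were seen: albumin, the 3 fibrinogen chains, which lie next to each other, the marker Cyp8b1, and Apob, which was shared with the ileum. The 150 bases before the start that RefSeq lists on GRCm38.p6 are given 5′ to 3′ on the strand of the gene. Capitals mark matches on either strand to an HNF1 half-site (GTTAAT), an HNF4 site (CAAAGNNCA), a C/EBP site (TTGCNNAA) or a TATA box (TATAAA).
Alb (chr5:90460720-90460869, plus strand): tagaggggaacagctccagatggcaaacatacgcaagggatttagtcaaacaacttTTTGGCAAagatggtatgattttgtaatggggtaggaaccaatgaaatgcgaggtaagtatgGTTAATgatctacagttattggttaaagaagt
Fga (chr3:83026003-83026152, plus strand): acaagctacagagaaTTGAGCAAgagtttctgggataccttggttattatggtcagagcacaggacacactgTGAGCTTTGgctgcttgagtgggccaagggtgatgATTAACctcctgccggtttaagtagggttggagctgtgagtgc
Fgb (chr3:83049864-83050013, minus strand): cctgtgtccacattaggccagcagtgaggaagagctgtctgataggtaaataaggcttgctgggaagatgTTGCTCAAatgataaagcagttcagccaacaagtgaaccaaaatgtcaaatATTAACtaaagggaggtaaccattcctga
Fgg (chr3:83007574-83007723, plus strand): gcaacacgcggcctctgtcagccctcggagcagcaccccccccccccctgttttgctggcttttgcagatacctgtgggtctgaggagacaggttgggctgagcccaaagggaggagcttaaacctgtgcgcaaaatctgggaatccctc
Cyp8b1 (chr9:121916306-121916455, minus strand): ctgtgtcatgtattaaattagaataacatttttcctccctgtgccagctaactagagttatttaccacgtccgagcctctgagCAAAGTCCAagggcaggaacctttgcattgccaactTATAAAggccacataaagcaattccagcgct
Apob (chr12:7977527-7977676, plus strand): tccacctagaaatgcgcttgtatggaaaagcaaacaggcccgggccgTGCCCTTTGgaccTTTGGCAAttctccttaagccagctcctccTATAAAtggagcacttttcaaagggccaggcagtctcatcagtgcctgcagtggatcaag
The Alb, Fga and Fgb windows each hold a match to the C/EBP site and to the HNF1 half-site, the Fga window also 1 to the HNF4 site. The window of Fgg, the fibrinogen chain with the largest difference (9.52), holds none of the 4 motifs, which says only that these letters are not in it. The Cyp8b1 window holds an HNF4 match and a TATA box, and the Apob window an HNF4 match, a C/EBP match and a TATA box.

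These motifs were counted in the promoters of the liver-high genes, from 250 bases before to 50 after the first start listed. Of the 407 protein-coding liver-high genes 330 matched the promoter table, which held 17492 protein-coding genes. The HNF1 half-site was present in 18.5% of liver-high promoters against 6.29% of all, and the HNF4 site in 17.6% against 5.72%. The C/EBP site was present in 20.9% against 10.1%, the site of the FOXA factors (TGTTTAC) in 5.15% against 2.94%, and the TATA box in 21.2% against 13.3%. The CCAAT box was about as frequent, at 41.8% and 39.0%. The GC box (GGGCGG) went the other way, with 27.6% of liver-high promoters against 46.3% of all. In the 118 promoters of genes with a liver difference of at least 5, the HNF1 half-site reached 23.7%, the C/EBP site 30.5%, and the GC box 11.02%. Base composition moved with these shares: median GC content was 56.3% over all promoters, 51.0% in the liver-high ones and 47.7% in those with a difference of at least 5, and its part in the shares was not tested. Both strands were searched, and 1 base can belong to matches of several motifs.

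**Figure D2:**
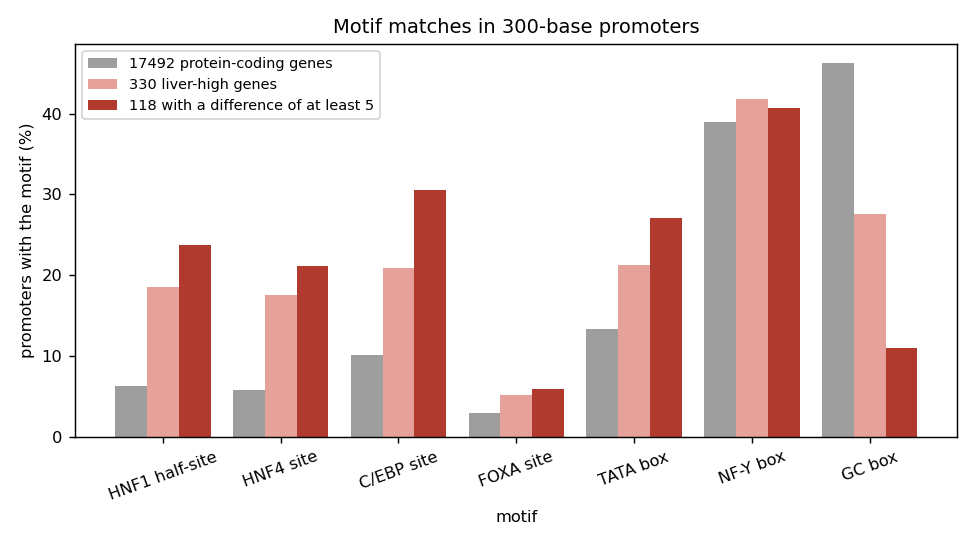
Share of 300-base promoters that hold each motif (y axis, percent) for 17492 protein-coding genes (grey), 330 liver-high genes (pink) and 118 liver-high genes with a difference of at least 5 (red). The HNF1 half-site went from 6.29% to 18.5% and 23.7%, and the GC box from 46.3% to 27.6% and 11.02%. The NF-Y box is the CCAAT motif.

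Bile acid synthesis and conjugation genes were liver-high for 14 of 17, with a median of 4.41. After Cyp7a1 the largest differences were those of Cyp2c70 (7.13), which makes the muricholic acids of mice, and Slc27a5 (6.45), which activates bile acids for conjugation. Baat, which joins them to taurine, had a difference of 4.41. Cyp27a1, the first enzyme of the alternative pathway, also read 6.58 to 7.56 in the other organs, and its difference was 2.65. Hsd17b4 (0.64) and Cyp39a1 (0.49) were not liver-high, nor was Ch25h (-1.52). The carriers of the hepatocyte and of the ileum were read in different organs. Slc10a1, the sodium-dependent uptake carrier, read 3.50 and 3.20 in the ileum, 11.24 and 11.12 in the liver and 2.96 and 3.08 in adipose tissue, and Abcb11, the bile salt export pump, had a difference of 7.16. Slc10a2, the ileal uptake carrier, read 10.79 and 10.58 in the ileum against 6.56 and 6.78 in the liver. Fabp6, which binds bile acids in enterocytes, read 12.03 and 12.09 in the ileum and 2.69 and 2.87 in the liver. In all 8 of 17 transport genes were liver-high.

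Amino acid breakdown and one-carbon genes were liver-high for 24 of 27, and the list median was 4.91. Tdo2, which opens the tryptophan ring, read 2.52 and 2.72 in the ileum, 11.17 and 11.31 in the liver, and 2.69 and 2.63 in adipose tissue. Mat1a, the S-adenosylmethionine synthetase of hepatocytes, had a difference of 8.05, and Hgd of the tyrosine pathway 7.31. The 3 exceptions were Bhmt (1.36), Cth (1.33) and Prodh (1.09). Of 11 genes of the urea cycle and nitrogen handling 3 were liver-high. Arg1, the last enzyme of the cycle, had a difference of 5.63. Cps1, the first enzyme, read 10.66 and 10.53 in the ileum, 11.76 and 11.80 in the liver, and 4.02 and 4.17 in adipose tissue, with a difference of 1.18. Otc, the second enzyme, had a difference of 0.78 with ileum readings of 9.91 and 9.82. Both mitochondrial steps were thus read in the ileum too, Otc within 1 of the liver mean and Cps1 more than 1 below it.

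Of 12 glucose and fructose genes 7 were liver-high. They included Gckr (5.25), which holds glucokinase in the nucleus, Fbp1 (4.85), an enzyme of gluconeogenesis, and G6pc (3.57), which releases glucose. Pck1, which starts gluconeogenesis, read 11.63 and 11.64 in the liver and 9.75 and 10.87 in adipose tissue, where it serves glycerol synthesis, and its difference was 1.32. Pklr, the pyruvate kinase of liver and gut, was level with the ileum (0.01). Gys2, the glycogen synthase of liver, had a difference of 2.93, since adipose tissue read 7.95 and 7.10.

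Cytochrome P450 genes of families 1 to 4 were liver-high for 26 of 50. The largest differences were those of Cyp2a12 (8.84), Cyp2j5 (8.63) and Cyp2c29 (8.46). Cyp1a2, which oxidizes caffeine and aromatic amines, had a difference of 6.80, and Cyp2f2, an enzyme of the periportal hepatocytes in mice, 7.83. Cyp2e1, which oxidizes ethanol, read 12.60 and 12.59 in the liver, and its readings of 10.29 and 10.81 in adipose tissue left a difference of 2.05, which was 1.78 on the BF diet. Other members were genes of the ileum, such as Cyp2c65 (-5.84), Cyp2s1 (-4.55) and Cyp4f14 (-1.56). Conjugation enzymes were liver-high for 11 of 30, with Sult2a8 (8.21), a sulfotransferase, and Ugt2b1 (7.61), a glucuronosyltransferase, at the top. Ugt2b34 was level with the ileum (0.05). Carboxylesterases and oxidases were liver-high for 13 of 24. Ces3a, an esterase of the hepatocyte endoplasmic reticulum, read 2.37 on all 4 other arrays and 12.03 and 12.05 in the liver. Uox (8.27) breaks down uric acid, and Gulo (6.72) completes vitamin C synthesis, a step that mice have and humans lack.

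Lipid genes gave a mixed picture. Of 19 apolipoprotein and lipoprotein genes 10 were liver-high, such as Apoh (7.81), Apoa2 (7.31), Apof (7.19) and Apoc1 (3.92). The genes that serve chylomicron assembly in the gut were not: Apoa1 (0.08), Apoa4 (-0.63), Apob (0.27) and the transfer protein Mttp (-1.30). Fatty acid oxidation and ketogenesis genes were liver-high for 10 of 27, with a median of 1.03. Acsm1 (5.93) and Acsm5 (4.33), which activate medium-chain acids, and Acaa1b (4.30), a thiolase of peroxisomes, led the list. Cpt1a (1.03), which admits fatty acids to mitochondria, Acadm (0.62) and Hadha (0.00) were read in all 3 organs. Of 31 lipid droplet and steatosis genes 5 were liver-high, namely Elovl3 (5.79), Fabp1 (4.35), Hsd17b13 (3.58), Plin5 (2.35) and Elovl5 (2.27). Of 16 cholesterol synthesis genes none was liver-high, with a median of -0.29. The highest of these was Tm7sf2 (1.41), and Sqle, which makes squalene epoxide, had -1.94. Over all genes the liver-high share was 1.95%, so a count of 0 of 16 does not set this list apart. Of the 16 genes, 1 passed the threshold after quantile normalization, 1 with housekeeping centring and 3 with median-centred arrays.

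**Figure D3:**
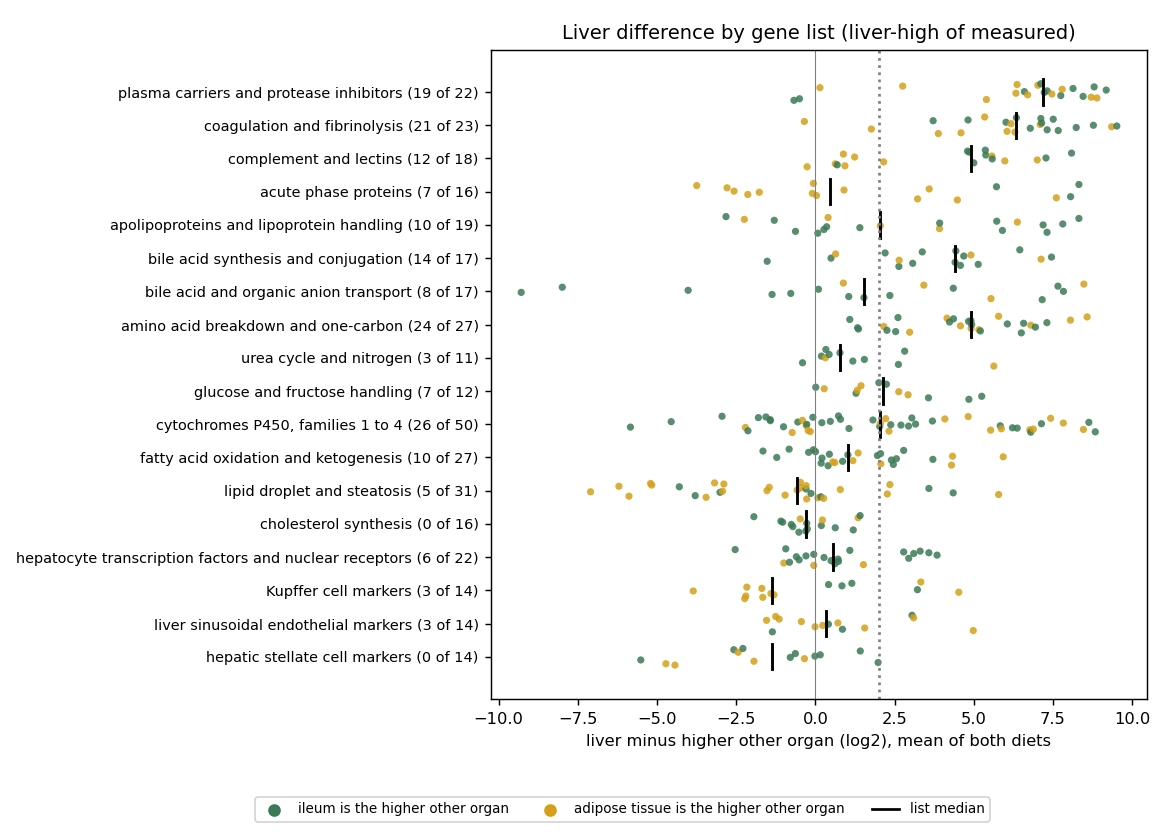
Liver difference (x axis, log2, mean of both diets) of each measured gene in 18 lists (rows, with the count of liver-high genes of those measured). Colour gives the other organ with the higher mean, black bars the list medians, and the dotted line the threshold of 2. List medians run from 7.17 for plasma carriers to -1.36 for stellate cell markers.

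Transcription factors and nuclear receptors of hepatocytes were liver-high for 6 of 22. They were Nr1i3 (3.84), the receptor CAR that governs drug metabolism, Onecut2 (3.58), Prox1 (3.31), Onecut1 (3.11), Nr0b2 (2.95), the repressor SHP, and Ppara (2.79), the receptor for fatty acids. Nr1i3 read 5.44 and 5.60 in the ileum, 9.30 and 9.42 in the liver and 3.89 and 4.07 in adipose tissue. The factors best known for hepatocyte identity were read in a second organ. Hnf4a read 10.68 and 10.61 in the ileum, 9.99 and 10.28 in the liver, and 4.50 and 4.88 in adipose tissue. The bile acid receptor Nr1h4 read 9.32 and 9.41, 8.78 and 8.74, and 3.38 and 3.69. Cebpa, a factor of both hepatocytes and adipocytes, read 6.64 and 7.05, 9.22 and 9.27, and 9.14 and 9.45. Each of these 3 lay within 1 of a second organ, so no direction between them is given.

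Genes at the liver level in exactly 1 other organ were counted after their values were seen, with a liver mean of at least 8, a liver mean at least 4 above 1 organ and within 1 of the other. This gave 23 genes shared with the ileum and 10 shared with adipose tissue. The ileum group held Apob, Apoa1, Pigr, which carries antibodies across epithelia, Otc, A1cf, the cofactor of Apob RNA editing, Pklr, Hnf4a, Creb3l3, Nr1h4 and the sterol exporter Abcg8. The adipose group held Car3, a carbonic anhydrase, Hp, which encodes haptoglobin, Cdo1, which oxidizes cysteine, Thrsp, a gene of fat synthesis, Igf1 and Orm1. Hp read 5.78 and 5.0 in the ileum, 12.16 and 11.84 in the liver, and 12.08 and 11.85 in adipose tissue.

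Hormone and iron genes were liver-high for 11 of 21. Hamp, which encodes hepcidin, the hormone that limits iron uptake, read 3.0 and 5.38 in the ileum, 12.19 and 12.31 in the liver, and 2.24 and 2.05 in adipose tissue. Tmprss6 (5.04), Tfr2 (4.33) and Hjv (3.90), all of which act on hepcidin production, were liver-high too. Hepatokine genes included Lect2 (5.92), Inhbe (5.95) and Fgl1 (6.17). Fgf21 (1.35) and Igf1 (0.59) were not liver-high. Igf1 read 9.15 and 8.68 in adipose tissue.

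Lists of other liver cells held some liver-high genes, at 21.4% of Kupffer cell and of sinusoidal endothelial markers against 1.95% of all genes. Of 14 Kupffer cell markers 3 passed, Cd5l (4.53), Vsig4 (3.33) and Clec4f (3.22), and those that fat macrophages share, such as Cd68 (-3.86) and Adgre1 (-2.23), were higher in adipose tissue. Of 14 markers of liver sinusoidal endothelium 3 passed, Clec4g (4.98), Oit3 (3.10) and Stab2 (3.05). None of 14 stellate cell markers passed, which does not differ much from the share of all genes, and Colec11 was nearest at 1.98. In bulk RNA, fewer cells of a type and less RNA per cell cannot be told apart. Of 11 genes known to be higher in male than in female mouse liver 9 were liver-high, such as Slco1a1 (7.66), Cyp2d9 (7.14) and Elovl3 (5.79). Of 10 genes known to be higher in females 3 were, Cyp2b9 (5.53), Cyp2a4 (4.87) and Acot3 (2.56). Genes of periportal hepatocytes (6 of 10) and of pericentral ones (7 of 13) were both represented. The pericentral gene Glul, glutamine synthetase, read 11.05 and 10.90 in the liver and 10.59 and 10.74 in adipose tissue, and its difference was 0.32.

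Of the 432 genes 222 were in the lists and 210 were not. Among the latter, chosen after their values were seen, were the amino acid transporters Slc38a4 (7.39) and Slc38a3 (7.10), Rgn (6.85), the asialoglycoprotein receptor subunits Asgr1 (6.14) and Asgr2 (5.26), Ttpa (6.19), which transfers vitamin E, and Elovl2 (6.58), which elongates polyunsaturated fatty acids. There were also 14 long non-coding RNA genes, 9 transcribed pseudogenes and 1 microRNA gene, Mir1948, with a difference of 2.23 at a liver mean of 5.92. A liver mean under 6 was found for 14 of the 432.

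Liver-high genes often lay next to each other. Of the 407 protein-coding ones 110 (27.03%) had another as the next protein-coding gene on either side in the GRCm38.p6 gene order, where 3.53% of 21900 reference genes had a liver-high neighbour. They formed 46 runs, the longest of 5 genes. These were Serpina1d, Serpina1a, Serpina1c, Serpina1e and Serpina11 on chromosome 12, Ahsg, Fetub, Hrg, Kng2 and Kng1 on chromosome 16, and Cyp2c69, Cyp2c37, Cyp2c54, Cyp2c50 and Cyp2c70 on chromosome 19. Fgg, Fga and Fgb formed a run on chromosome 3. Most long runs were families of related genes, where probes may read more than 1 copy, so neighbours were not independent readings.

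The reverse pattern, a liver mean at least 2 below both other organs, was seen for 680 genes (3.07%), 643 of them protein-coding. That count depended on the scaling of the arrays and was 185 after quantile normalization. Of the 6 protein-coding genes with the largest such differences, Oxct1, the enzyme with which tissues other than liver use ketone bodies, read 9.23 and 8.94 in the ileum, 3.41 and 3.14 in the liver, and 9.10 and 9.06 in adipose tissue. The others were Tmem45b, Emp1, Anxa2, Slc1a5, a glutamine transporter, and Dpep1, a dipeptidase. Their liver means lay 5.22 to 6.35 below the nearer organ.

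The 2 diets were compared by calling liver-high genes on the 3 arrays of each diet alone. On the control diet 431 genes (1.94%) were called and on the BF diet 427 (1.93%). The lists shared 400 genes, 92.8% of the control calls and 93.7% of the BF calls. The BF arrays were not used in choosing the control calls. On them, 430 of those 431 genes had a liver difference of at least 1, a lower threshold than that of the call, and the median was 3.90. By the mean of both diets, 684 of all 22180 genes had at least 1. In the other direction, all 427 BF calls had at least 1 on the control arrays. The 31 genes called on the control diet only and the 27 called on the BF diet only had at least 1 on the other diet, except for Lcn2. Lcn2, lipocalin 2, had a liver difference of 2.31 on the control diet and -2.50 on the BF diet. It read 5.05 and 5.55 in the ileum, 9.0 and 5.13 in the liver and 6.69 and 7.63 in adipose tissue, and by the mean of both diets it was not liver-high.

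**Figure D4:**
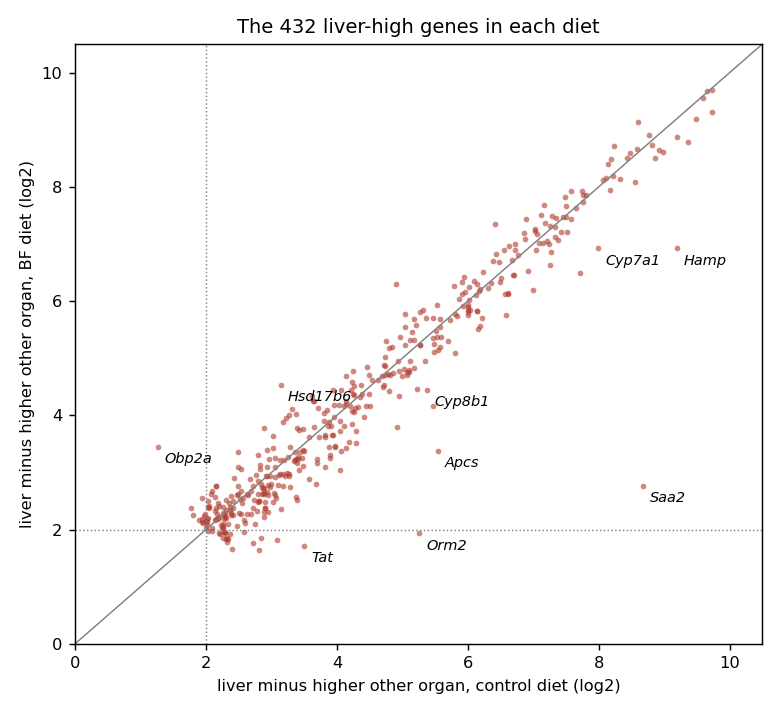
Liver difference of the 432 liver-high genes on the control diet (x axis, log2) and on the BF diet (y axis, log2), 1 point per gene, with the line of equality and the thresholds of 2 (dotted). The differences lay within 0.5 of each other for 342 genes and over 1 apart for 15, Saa2 and Orm2 among them.

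Within the liver, most of the 432 genes passed neither of the fold thresholds given below. The liver differences, which also shift with the other organs, lay within 0.5 of each other between diets for 342 genes and over 1 apart for 15. With the most extreme genes at each end left out, BF minus control of the liver difference ran from -1.03 to 0.70 for liver-high genes. Over all genes it ran from -0.71 to 0.71, so the liver-high genes reached further down. At the thresholds of 1.3 fold and 0.77 fold between the BF and control liver arrays, 23 liver-high genes (5.32%) were higher and 33 (7.64%) lower, against 6.11% and 5.97% of all genes. Among genes with a liver mean of at least 6, which leaves out readings near the low end, 21 of 418 (5.02%) were higher and 32 (7.66%) lower, against 3.09% and 3.80% of 4918 genes. With 1 array per diet these counts have no replicate check.

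Of 16 acute phase genes measured, which the liver raises in inflammation, 11 were lower and 0 higher in the BF liver, with a median of -0.57 for BF minus control. Among the 7 of them that were liver-high, 3 were lower and the median was -0.19. The cholesterol synthesis genes, none of them liver-high, had a median of -0.79, with 13 of 16 lower. Over all genes 5.97% were lower and 6.11% higher, and at a liver mean of at least 6 3.80% and 3.09%. The 3 liver-high acute phase genes that were lower were Saa2, Orm2 and Apcs. Saa2, a serum amyloid A, read 3.06 and 3.67 in the ileum, 11.73 and 6.43 in the liver and 2.17 and 1.99 in adipose tissue. Its liver difference was thus 8.68 on the control diet and 2.76 on the BF diet. Orm2, an orosomucoid, read 10.24 and 6.39 in the liver and 4.98 and 4.46 in adipose tissue, and was liver-high on the control diet (5.25) but not on the BF diet (1.93). Apcs, serum amyloid P, read 8.22 and 6.38 in the liver. The other 4, Saa4, Hamp, Crp and Cp, lay within 0.19 of each other between diets in the liver. Genes of this list that adipose tissue shared were not liver-high, such as Hp (0.04), Serpina3n (-0.06) and Lbp (-2.13).

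Outside the acute phase, the liver-high protein-coding genes furthest lower in the BF liver at a mean of at least 6 were Cyp17a1, an enzyme of steroid synthesis (8.46 and 6.98), Cyp8b1 (9.95 and 8.76) and Aqp8, a water channel (7.83 and 6.67). Cyp7a1 followed at 10.65 and 9.61. The other 12 liver-high genes of bile acid synthesis lay between the thresholds. Furthest higher were Hsd17b6, which converts androgens (8.75 and 9.90), Cyp2c37 (9.31 and 10.02), Cyp3a11, a drug oxidase (7.81 and 8.49), Igfbp2, which binds insulin-like growth factors (8.23 and 8.88), Ak4, an adenylate kinase (7.17 and 7.75) and Hsd3b5 (7.43 and 7.96). Of the 26 liver-high P450 genes 4 were higher and 1 lower, with a median of 0.17. Obp2a, an odorant-binding protein, had the largest difference upward but a low level, at 4.13 and 6.27. None of the 24 liver-high amino acid genes and none of the 12 complement genes passed a threshold between diets. Of the 21 coagulation genes 1 did, Serpina10, at 9.76 and 9.36. Over the 432 liver-high genes 5.32% were higher and 7.64% lower, and over all genes 6.11% and 5.97%. Few calls would therefore be found in lists of these sizes, and the counts are not read as differences between the lists.

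**Figure D5:**
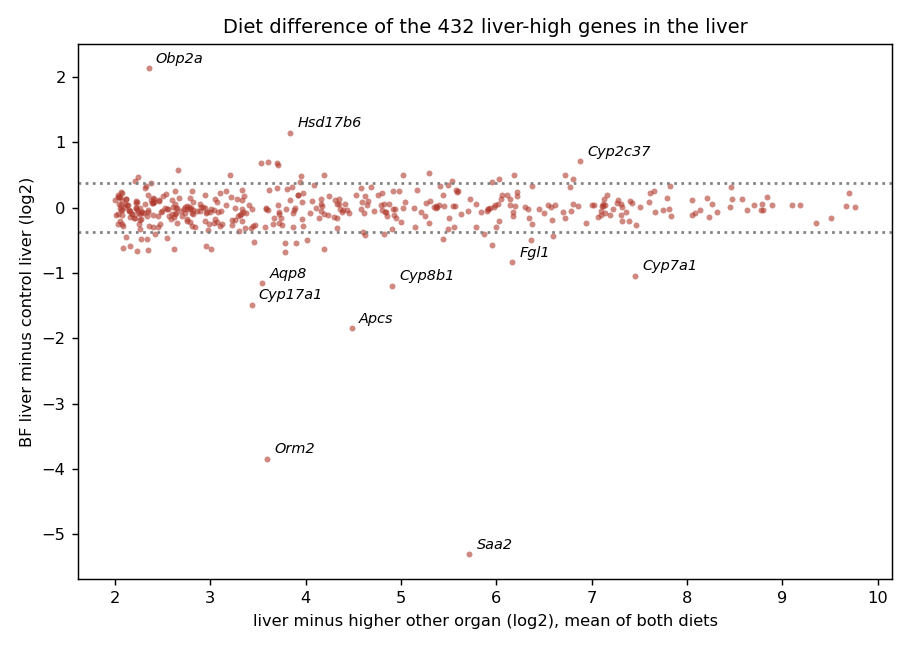
BF liver minus control liver (y axis, log2) against the liver difference (x axis, log2, mean of both diets) of the 432 liver-high genes, 1 pooled array per diet. Dotted lines mark 1.3 fold and 0.77 fold. Of the 432, 23 lay above and 33 below these lines, and Saa2 and Orm2 lay lowest at -5.31 and -3.84.

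The organ difference could also shift through the other organs. Between the ileum arrays 3 liver-high genes were higher by over 1 on the BF diet and 1 lower. Hamp read 3.0 and 5.38 there, Tat, tyrosine aminotransferase, 8.38 and 10.18, and Fabp1 6.78 and 7.96, while the liver arrays differed by 0.11, 0.01 and 0.06 for them. Tat was liver-high on the control diet (3.50) and not on the BF diet (1.71), since the ileum value that was subtracted was higher. In the same ileum arrays Alb read 3.59 and 4.53, and Serpina1c 2.86 and 3.42. Fgb read 2.84 and 2.84 there, Apoh 3.73 and 3.61, and Ambp 3.32 and 2.79. Genes with large liver differences thus did not share a direction between the ileum arrays. These examples were chosen after their values were seen, and the causes were not tested. In adipose tissue 3 liver-high genes were higher by over 1 and 3 lower, with Cyp17a1 at 5.64 and 2.93. The share of all genes that differed by over 1 was not counted in either organ. The counts for the ileum and adipose tissue are therefore not read as many or few.

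The threshold cut through a continuous range. Just inside it lay Nadk2 (2.03), Gstk1 (2.01) and Slc37a4 (2.00), and just outside Rnf125 (1.99), Prkd3 (1.99) and Colec11 (1.98). These 6 genes were set apart by less than the difference between diets of most of them.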

How the data were processed

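The authors pooled RNA of 10 mice per group, hybridised 100 ng per pool to 1 array and processed the arrays by RMA at default settings in Expression Console 1.3. The deposited log2 values, for 41345 probe sets on each of 6 arrays, were used as they are. Which arrays were normalized together is not given in the sources used here. Gene names came from the platform annotation, in which 23521 probe sets carried 1 symbol, 1820 several and 16004 were not listed. Where a gene had several probe sets, the one with the highest average stood for it. Genes not listed under a symbol of their own were not analysed here. Members, lists and tests were chosen with earlier results of these data known. The genes named are the markers, the 15 protein-coding genes with the largest difference, up to 5 members of each list, the liver list members that were not liver-high, the 6 furthest each way between diets, those nearest the threshold and 6 liver-low genes, and others are named as chosen after their values were seen. Each group is 1 array, and no test is reported. A limma fit of organ with diet as a block was run as an alternative on the same arrays that chose the genes, so its p-values test nothing and are not given. An exact permutation test of 2 liver arrays against 4 could not go below p = 0.0667 two-sided. Python 3.11.15 and, for 1 alternative, R 4.3.3 with limma 3.58.1 were used, and the rule was tested on simulated data. The number of arrays limits the precision.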

Additional observations from a re-analysis of the deposited data

Results flagged for a closer look

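Lcn2, which encodes lipocalin 2, was above both other organs in the liver of the control group and below adipose tissue in the BF group. Its liver difference was 2.31 on the control diet and -2.50 on the BF diet. Each value rests on 1 pooled array per organ, and the difference between the diets was not tested.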

How the results depend on the processing

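Leaving the rule otherwise as it was, the 432 liver-high genes became 570 after quantile normalization (431 of them shared), 402 with arrays centred on housekeeping genes (371 shared), 429 from the mean of a gene's probe sets, 573 against the mean of the other organs, 290 at a threshold of 3 and 684 at a threshold of 1. Alternatives chosen after seeing the data gave 647 with arrays centred on their medians and 419 where every probe set had to pass. The 400 genes of both diets became 634 at a threshold of 1 and 602 with median-centred arrays. The 680 liver-low genes became 185 after quantile normalization, 166 with median-centred arrays, 691 with housekeeping centring, 3938 at a threshold of 1 and 135 at 3. Those scalings moved the median liver difference of all genes from -0.92 to -0.14, -0.01 and -1.27. At 1.5 fold, 7 and not 23 liver-high genes were higher and 16 and not 33 lower in the BF liver. Of 162 named genes, quantile normalization took Cyp2e1 below the threshold and put 4 above it, the control diet alone lost Gstk1 and gained Aldh1a1, and the BF diet alone lost Orm2, Tat, Slc2a2, Cyp2e1 and Elovl5. The causes were not tested.

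Signals near the low end of an array limit the liver differences of 190 genes.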
